A study of Mus musculus with 24 samples.

Results

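The genes described here are 10 transcripts that rise when astrocytes become reactive: Gfap, Vim, Serpina3n, Lcn2, Cd44, Osmr, Steap4, Aspg, S1pr3 and Timp1. They were taken by name, as genes long used to mark reactive astrocytes, and all 10 were found among the 24411 genes of a hippocampal RNA-seq count table. The table held 6 groups of mice labelled C57/B6, with 4 columns per group, 2 female and 2 male. Wild-type mice were young (9 months, saline), old (20 months, saline) or old and treated (Old-Nano, 20 months). rTg4510 mice, which make a mutant human tau in forebrain neurons through a CaMKII promoter-driven tTA activator, were given saline or treated (rTg4510-Nano), and their littermate controls (LM) were given saline, all at 3 months. Treated mice received 150 mg/kg of a Nanoligomer mixture into the peritoneum 3 times per week for 1 month. A Nanoligomer is an antisense peptide nucleic acid on a gold nanoparticle, and the mixture was directed against NF-κB and NLRP3, a transcription factor and an inflammasome sensor of innate immunity. Tissue was the left hippocampus.

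Several features of the groups bound what follows. The rTg4510 columns M2 and M3 were identical for every gene, were counted as 1 library (called M2 here), and left 3 libraries in that group and 23 in all. The genotype field of the littermate controls also reads rTg4510, while their names, descriptions and treatment field call them littermate controls, and the alleles they carried are not stated in the labels. Wild-type and tau mice differed in age and in source, so levels across the 2 models cannot be assigned to either. Libraries were treated as separate mice because the names give each a sex and number. In whole tissue, fewer cells of a type and less RNA per cell cannot be told apart.

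Astrocytes are glial cells that take up glutamate and potassium, line blood vessels and feed neurons. After injury, infection or protein aggregation they enlarge, build more intermediate filaments, and secrete protease inhibitors, lipocalins and cytokines. Much of this programme is driven by receptors that share the gp130 subunit and signal through JAK kinases and STAT3, and part of it by NF-κB. In mice, one set of genes is shared by most reactive states, others are induced more by systemic endotoxin (called A1) or by ischaemia (A2). The members were grouped by role: the filament proteins Gfap and Vim, the secreted proteins Serpina3n, Lcn2 and Timp1, the surface receptors Cd44, Osmr and S1pr3, and the enzymes Steap4 and Aspg.

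Library totals ran from 17214974 to 27424344 counts. Levels are given as CPM, counts scaled to a common library size, after TMM scaling, a correction for differences in RNA composition. Homeostatic astrocyte markers (15 genes, among them Aldh1l1, Slc1a2, Aqp4 and Gja1) were abundant in every library, with summed levels of 7786 to 13210 CPM, so astrocyte RNA was well represented. Markers of other regions or tissues stood out in a few libraries. Olfactory bulb markers reached 1597 CPM in young M4 and 428 CPM in old M1, and striatum markers 1625 CPM in old M1. Hypothalamus markers reached 406 CPM in rTg4510-Nano M2, and pituitary markers 1819 CPM in rTg4510-Nano M3. Choroid plexus markers summed to 4849 to 20258 CPM in the 3 rTg4510 libraries and to at most 269 CPM in any other library.

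Only levels divided by exon length can be compared between genes. On that scale, averaged over the 6 groups, Gfap led with 135.0 CPM per kilobase, followed by Serpina3n with 39.3 and Vim with 12.3. The receptor S1pr3 stood at 2.60 CPM per kilobase and Aspg at 1.03. Cd44, Osmr, Timp1, Lcn2 and Steap4 lay between 0.276 and 0.875 CPM per kilobase. The set therefore spans abundant structural genes and transcripts near the limit of detection: Lcn2 was represented by 1 to 5 counts per library in young mice and Steap4 by 0 to 9 in rTg4510-Nano mice. A count of 0 still allows 3 counts, or 0.114 to 0.174 CPM in the libraries concerned, and such limits cover counting error only.

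**Figure D1:**
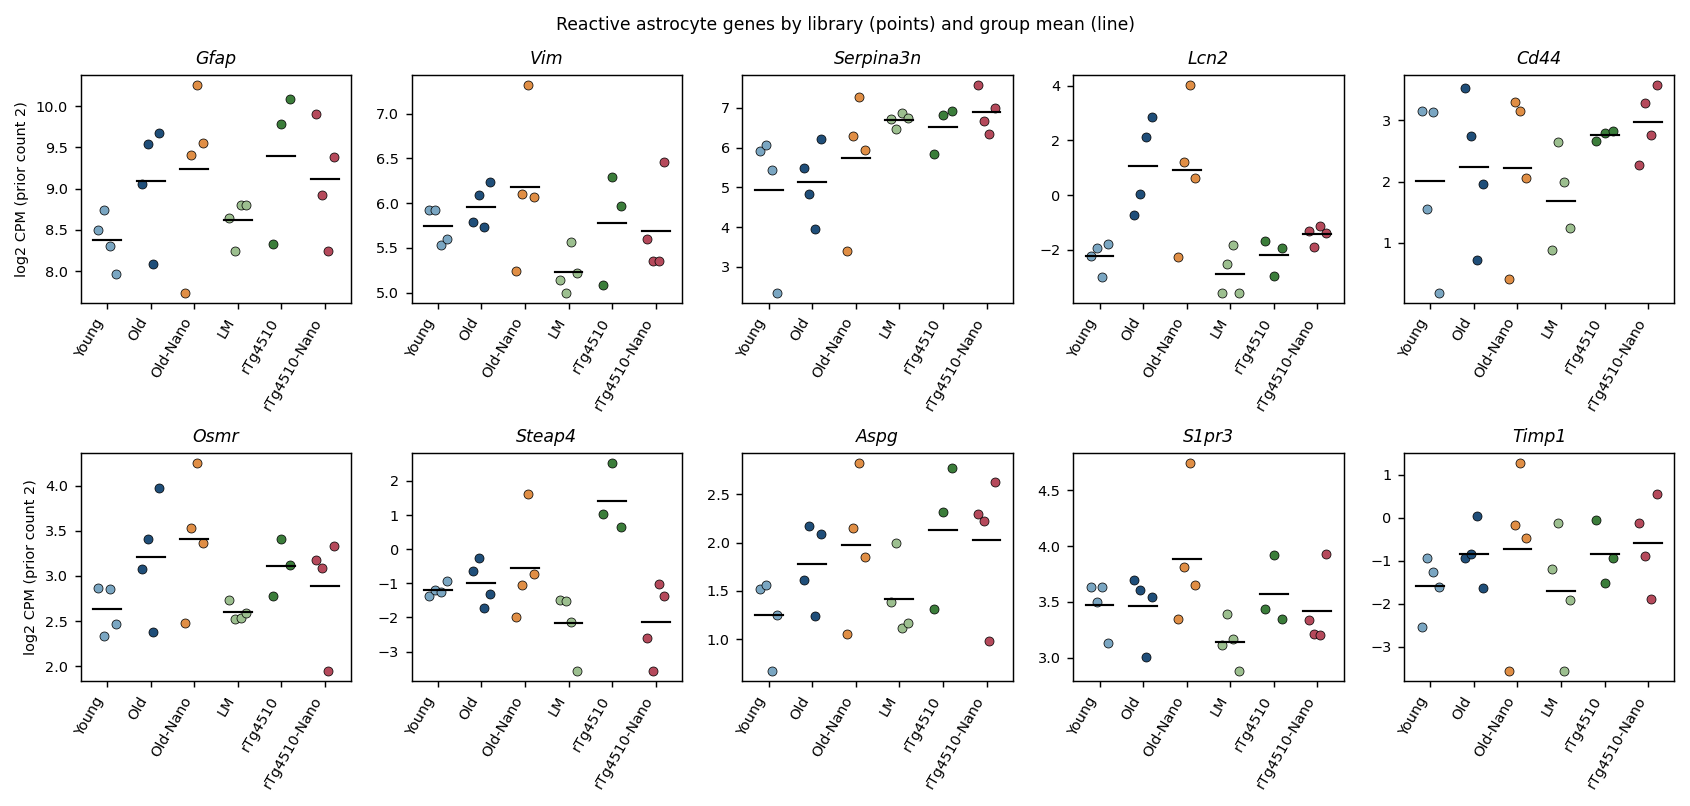
Level of each of the 10 genes as log2 CPM (prior count 2, vertical axis) in the 6 groups (horizontal axis). Each point is 1 library and each line the mean of the log2 values of a group, and the spread within Old-Nano is wide for Gfap (214 to 1223 CPM) and Lcn2 (0.125 to 16.2 CPM).

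Upstream sequences are shown for the gene whose libraries did not overlap in both tau comparisons (Steap4) and for the defining gene of the set (Gfap). All 10 members had an entry in the RefSeq promoter table (GRCm38.p6), and 250 bases before each RefSeq start were searched on both strands for 4 motifs. These were the STAT motif TTCNNNGAA, the AP-1 motif TGANTCA, the C/EBP motif TTGCNNAA and the kappa B motif bound by NF-κB. Each stretch below is written 5′ to 3′ on the gene's strand without annotated exons, with motif matches in capitals.
Steap4 (chr5:7960222-7960456, plus strand): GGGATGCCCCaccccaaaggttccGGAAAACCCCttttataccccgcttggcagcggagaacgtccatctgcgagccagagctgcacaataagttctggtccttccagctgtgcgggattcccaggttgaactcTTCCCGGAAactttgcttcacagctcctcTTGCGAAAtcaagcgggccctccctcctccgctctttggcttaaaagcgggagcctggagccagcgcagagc
Gfap (chr11:102897201-102897450, minus strand): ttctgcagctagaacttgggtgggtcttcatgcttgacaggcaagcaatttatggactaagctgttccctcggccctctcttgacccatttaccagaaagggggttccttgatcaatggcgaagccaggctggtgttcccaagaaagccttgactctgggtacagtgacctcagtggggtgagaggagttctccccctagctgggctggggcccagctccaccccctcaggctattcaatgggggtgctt
The Steap4 stretch held a STAT match 116 to 108 bases before the start, a C/EBP match 87 to 80 bases before it, and kappa B matches at 250 to 241 and 226 to 217. The Gfap stretch held none of the 4 motifs. Over the 10 members, STAT matches occurred in 1 (Steap4), C/EBP matches in 2 (Steap4 and Lcn2), kappa B matches in 2 (Steap4 and Vim) and AP-1 matches in 0. The matches of Lcn2 and Vim lie in bases that GENCODE annotates as exon, which made up 197 and 250 of the 250. Among 32851 promoters the shares were 7.02% for STAT, 9.56% for C/EBP, 7.25% for kappa B and 6.75% for AP-1. These are letter matches in a short window and carry no measurement of binding.

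Gfap encodes the filament protein that defines reactive astrocytes (GRCm38 chromosome 11, 102887336 to 102900912, minus strand). Young mice had 362, 429, 316 and 250 CPM (F2, F4, M1, M4), and old mice 531, 746, 273 and 817 CPM (F2, F3, M1, M3). Of the old mice, 3 lay above every young mouse, and old M1, the library with striatum and olfactory markers, lay among them. The mean was 339 ± 75.3 CPM (SD, n = 4) in young and 592 ± 245 (SD, n = 4) in old mice, a log2 fold change of 0.80 ± 0.33 (SE) that did not pass the test over all genes (edgeR quasi-likelihood, adjusted p = 0.467). Leaving out 1 library at a time moved it between 0.61 and 1.04. Treated old mice had 214, 681, 1223 and 752 CPM (F1, F2, M2, M5), so this group held both the lowest and the highest Gfap level of the 23 libraries. The highest exceeded the lowest 5.72-fold within Old-Nano.

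In the tau model, LM mice had 401, 304, 445 and 445 CPM of Gfap (F2, F3, M1, M2) and rTg4510 mice 321, 882 and 1089 CPM (F1, F3, M2). A pair of rTg4510 libraries thus lay well above the controls, and F1 lay inside their range. The log2 fold change was 0.94 ± 0.37 (SE; edgeR adjusted p = 0.322). Without rTg4510 F1, the lowest library of its group, it was 1.31 and passed the threshold (edgeR adjusted p = 0.0128). Without rTg4510 M2, the highest, it was 0.60, so the difference depended on single libraries in both directions. Treated rTg4510 mice had 960, 486, 303 and 668 CPM (F1, F2, M2, M3), a log2 difference from untreated rTg4510 mice of -0.34 ± 0.48 (SE; edgeR adjusted p = 0.991). The groups overlapped from end to end, and an SE of that size leaves room for a sizeable change either way.

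Gfap was also set against the summed homeostatic markers, since both come from astrocytes. Per 1000 CPM of those 15 markers, Gfap stood at 32.1 to 49.6 CPM in young, 26.1 to 76.7 in old and 20.7 to 108.8 in Old-Nano mice. In the tau model the ranges were 35.2 to 55.7 in LM, 37.4 to 109.6 in rTg4510 and 36.7 to 96.2 in rTg4510-Nano mice. Old-Nano and rTg4510 mice still held the widest ranges.

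Vim, a filament protein shared by astrocytes, endothelium and mesenchymal cells (chromosome 2, 13573927 to 13582826, plus strand), averaged 53.9 ± 7.61 CPM in young and 63.0 ± 10.7 CPM in old mice (SD, n = 4 each). This was a log2 fold change of 0.22 ± 0.15 (SE; edgeR adjusted p = 0.621). Treated old mice spread from 37.7 CPM in F1 to 160 CPM in M2, with 68.7 and 67.0 CPM in the other two. LM mice had 31.9 to 47.5 CPM, and rTg4510 mice had 33.8, 78.5 and 62.3 CPM (F1, F3, M2), again with F1 inside the control range. Their log2 fold change was 0.62 ± 0.27 (SE; edgeR adjusted p = 0.379), and 0.90 without F1 (edgeR adjusted p = 0.0382). Without F3, the highest library of the group, it was 0.34. In rTg4510-Nano mice Vim stood at 48.3, 40.7, 40.9 and 88.1 CPM (F1, F2, M2, M3), a log2 difference from LM of 0.53 ± 0.26 (SE) that did not pass.

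Serpina3n, a secreted inhibitor of serine proteases (chromosome 12, 104406729 to 104414329, plus strand), was the most abundant of the secreted members. Young mice had 59.8, 67.4, 43.4 and 5.01 CPM (F2, F4, M1, M4) and old mice 45.1, 28.5, 15.4 and 74.2 CPM (F2, F3, M1, M3). Within young mice the highest level exceeded the lowest 13.4-fold, and the lowest came from M4, which held olfactory bulb markers. The age difference was -0.11 ± 0.72 (log2, SE). Treated old mice had 10.5, 78.2, 154 and 61.2 CPM (F1, F2, M2, M5). The lowest of these, F1, had the most olfactory bulb markers of its group (76.2 CPM), though far fewer than young M4. It also had the most striatum markers of its group. The part of these markers in the Serpina3n levels was not tested. LM mice lay close together at 88.2 to 116 CPM, while rTg4510 mice had 57.5, 112 and 121 CPM and rTg4510-Nano mice 191, 101, 81.2 and 127 CPM. Neither tau comparison separated the groups (log2 -0.10 ± 0.24 for rTg4510 versus LM and 0.37 ± 0.34 for rTg4510-Nano versus rTg4510, SE). Serpina3n is 1 of 11 clustered Serpina3 genes on chromosome 12, all in the count table. How reads that match more than 1 of them were counted is not known, and their effect on its counts was not measured.

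Lcn2, a lipocalin that binds iron-carrying siderophores and is secreted by reactive astrocytes and neutrophils (chromosome 2, 32384633 to 32388252, minus strand), had the largest log2 difference with age of the 8 members tested. Young mice had 0.129, 0.174, 0.0419 and 0.202 CPM (F2, F4, M1, M4), while old mice had 0.517, 0.950, 4.23 and 7.08 CPM (F2, F3, M1, M3; 13 to 180 counts). All 4 old libraries lay above all 4 young ones. Such a separation in this direction held for 4.51% of the 15335 genes tested between old and young mice. On the log2 scale old mice were higher by 4.49 ± 0.95 (SE). By edgeR the adjusted p was 0.309, on the far side of the threshold, whereas DESeq2, which passed 1.59% of the genes it tested, gave an adjusted p of 0.000327. Over all alternatives the adjusted p of Lcn2 ran from 0.000327 to 0.754, with a positive difference in each and 3.75 to 4.85 when single libraries were left out. Neutrophil markers summed to 0.525 to 2.22 CPM in young and 0.636 to 6.77 CPM in old mice, highest in old M3, which also held the most Lcn2. Of the 9 neutrophil genes, 1 to 4 were at 0 in each old library (Elane in all 4), and the 2 with enough counts to be tested had positive differences, S100a8 with a log2 fold change of 2.59 ± 1.06 (SE; edgeR adjusted p = 0.468) and S100a9 with 1.98 ± 1.15 (SE; edgeR adjusted p = 0.578). Their part in the Lcn2 difference was not tested.

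Among treated old mice Lcn2 stood at 0.125, 2.21, 16.2 and 1.46 CPM (F1, F2, M2, M5), so F1 resembled young mice and M2 exceeded every other library. Neutrophil markers in M2 summed to 2.20 CPM. Against old mice the log2 difference was 0.64 ± 1.19 (SE), and without M2 it turned to -1.34. Against young mice it was 5.15 ± 1.39 (SE; edgeR adjusted p = 0.409). DESeq2 passed it (adjusted p = 0.00234, within 0.00234 to 0.721 over the alternatives), and the difference was 3.15 without M2. In the tau model Lcn2 was almost absent: LM mice held 0 to 4 counts per library, rTg4510 mice 1 to 6 and rTg4510-Nano mice 4 to 8, too few for a test of rTg4510 against LM.

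Timp1, an inhibitor of matrix metalloproteinases (chromosome X, 20870166 to 20874735, plus strand, lying inside Syn1 on the opposite strand without shared exon bases), was rare throughout. Its levels were 0.0859 to 0.435 CPM in young, 0.236 to 0.949 in old and 0 to 2.33 in Old-Nano mice. They were 0 to 0.842 CPM in LM, 0.263 to 0.878 in rTg4510 and 0.184 to 1.38 in rTg4510-Nano mice. All groups overlapped, and old against young and rTg4510 against LM fell under the count minimum of 10. Of the related inhibitors, Timp3 stood at 98.9 to 125 CPM in LM and at 139 to 227 CPM in rTg4510 mice, without overlap (log2 fold change 0.63, edgeR adjusted p = 0.178, DESeq2 adjusted p = 0.0345). The rTg4510 libraries also held the most choroid plexus markers, whose part in the Timp3 difference was not tested.

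Osmr encodes the receptor subunit that joins gp130 to bind oncostatin M (chromosome 15, 6813577 to 6874969, minus strand). Young mice had 4.96 to 7.21 CPM and old mice 8.35, 10.5, 5.13 and 15.6 CPM (F2, F3, M1, M3), so 3 of 4 old libraries exceeded the young range and M1 did not. Age made a log2 difference of 0.68 ± 0.32 (SE; edgeR adjusted p = 0.513). Treated old mice had 5.49, 11.5, 18.9 and 10.2 CPM (F1, F2, M2, M5), 0.90 ± 0.35 above young mice on the log2 scale (SE; edgeR adjusted p = 0.443). The tau model gave tighter values, 5.67 to 6.55 CPM in LM and 6.79, 10.6 and 8.65 CPM in rTg4510 mice (F1, F3, M2). These groups did not overlap, yet the log2 fold change of 0.54 ± 0.18 (SE) did not pass over all genes (edgeR adjusted p = 0.240). In rTg4510-Nano mice Osmr ranged from 3.77 to 9.96 CPM and overlapped both other groups.

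Cd44, the receptor for the matrix polymer hyaluronan (chromosome 2, 102811141 to 102901665, minus strand), varied more within the wild-type groups than between them. Young mice had 8.76, 2.83, 8.68 and 1.05 CPM (F2, F4, M1, M4) and old mice 11.4, 6.60, 1.55 and 3.82 CPM (F2, F3, M1, M3). The lowest young and old libraries were again M4 and M1, those with olfactory and striatum markers. In the tau model LM mice had 1.75, 6.16, 3.88 and 2.28 CPM (F2, F3, M1, M2) and rTg4510 mice 6.26, 6.83 and 7.02 CPM (F1, F3, M2), which did not overlap. The log2 fold change was 0.93 ± 0.40 (SE; edgeR adjusted p = 0.356). rTg4510-Nano mice had 4.71, 9.65, 6.67 and 11.9 CPM, 0.30 ± 0.31 (log2, SE) from rTg4510 and 1.22 ± 0.44 from LM mice (edgeR adjusted p = 0.611 for the latter). Its mean lay above that of the controls in both tau groups, without passing the test in either.

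S1pr3, a receptor for sphingosine 1-phosphate (chromosome 13, 51408639 to 51422797, plus strand), stood at 8.65 to 12.3 CPM in young and 7.94 to 12.9 CPM in old mice. Treated old mice had 10.1 to 14.0 CPM in 3 libraries and 26.7 CPM in M2. LM mice had 7.27 to 10.4 CPM, rTg4510 mice 10.1 to 15.02 and rTg4510-Nano mice 9.11 to 15.1 CPM. The log2 fold change between rTg4510 and LM mice was 0.45 ± 0.19 (SE; edgeR adjusted p = 0.346). S1pr3 shares 45 exon bases with an antisense long noncoding RNA, and the strand setting of the counting is not given in the sources used here, so reads of that stretch cannot be assigned.

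Aspg, an asparaginase (chromosome 12, 112106679 to 112127559, plus strand), stood at 1.51 to 2.87 CPM in young and 2.29 to 4.42 CPM in old mice (log2 fold change 0.54 ± 0.29, SE; edgeR adjusted p = 0.551). Treated old mice spread from 1.996 CPM in F1 to 6.99 CPM in M2. LM mice had 2.09 to 3.90 CPM and rTg4510 mice 2.40, 4.90 and 6.75 CPM (F1, F3, M2), with F1 once more inside the control range. The log2 fold change was 0.81 ± 0.38 (SE; edgeR adjusted p = 0.410).

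Steap4, a membrane metalloreductase that reduces iron and copper (chromosome 5, 7960457 to 7982213, plus strand), had the largest log2 difference between rTg4510 and LM mice of the 8 members tested. LM mice had 0.273, 0.266, 0.146 and 0 CPM (F2, F3, M1, M2). rTg4510 mice had 1.95, 5.65 and 1.5 CPM (F1, F3, M2; 34 to 129 counts). rTg4510-Nano mice had 0.0799, 0, 0.414 and 0.299 CPM (F1, F2, M2, M3). Every untreated rTg4510 library therefore stood above every LM and every rTg4510-Nano library. Against LM the log2 fold change was 4.03 ± 0.74 (SE), just outside the threshold by edgeR (adjusted p = 0.0581) and inside it by DESeq2 (adjusted p = 9.8e-06, the lowest of a range that reached 0.199 over the alternatives). The difference was 3.22 without rTg4510 F3 and at most 4.36 without any other library. Without rTg4510 F1 it was 4.27 and passed by edgeR (adjusted p = 0.0348). Between rTg4510-Nano and rTg4510 mice the log2 difference was -3.88 ± 0.91 (SE), with an edgeR adjusted p of 0.334 and a DESeq2 adjusted p of 0.00260 (the lowest over the alternatives, which reached 1). Single omissions left it between -4.44 and -3.08.

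Markers of the choroid plexus, the epithelium that makes cerebrospinal fluid and lies against the hippocampus, were high in the same tau-model group as Steap4. In rTg4510 F3, with the most Steap4, they summed to 20258 CPM, in F1 to 4849 CPM and in M2 to 7011 CPM. The order differed between F1 and M2, as M2 held less Steap4 than F1 (1.5 beside 1.95 CPM). LM libraries held 46.9 to 269 CPM and rTg4510-Nano libraries 44.0 to 121 CPM. Of the 15 choroid plexus genes, 14 were higher in rTg4510 than LM mice and 5 were lower in rTg4510-Nano than rTg4510 mice past the threshold, and none of the 15 was at 0 in any LM or rTg4510 library. The paralog Steap1 moved alike, with 3.43 to 16.9 CPM in rTg4510, 0.0390 to 0.355 in LM and 0.0399 to 0.448 in rTg4510-Nano mice (log2 fold change 5.80 for rTg4510 versus LM, edgeR adjusted p = 0.0278). Steap2 stood at 26.3 to 109 CPM in rTg4510 and 8.24 to 14.8 CPM in LM mice (log2 fold change 2.43, edgeR adjusted p = 0.0763, DESeq2 adjusted p = 1.8e-06). The part of choroid plexus tissue in the Steap4 difference was not tested. The highest wild-type Steap4 level, 2.96 CPM in Old-Nano M2, came from a library with 112 CPM of choroid plexus markers, and the other 11 wild-type libraries had 0.166 to 0.760 CPM of Steap4 and 11.6 to 137 CPM of these markers.

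**Figure D2:**
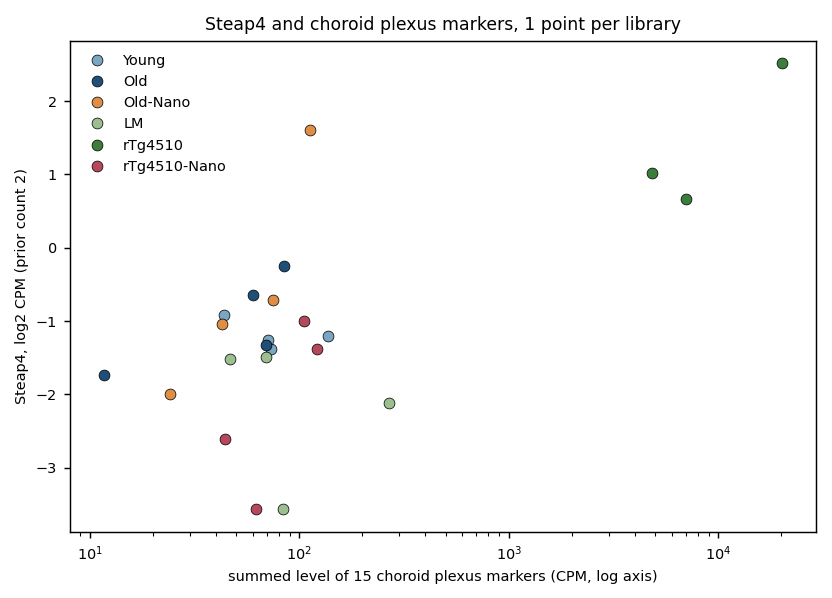
Steap4 as log2 CPM (prior count 2, vertical axis) against the summed CPM of 15 choroid plexus markers (log axis), 1 point per library, coloured by group. The 3 rTg4510 libraries lie apart at 1.5 to 5.65 CPM of Steap4 and 4849 to 20258 CPM of markers, and Old-Nano M2 has 2.96 CPM of Steap4 with 112 CPM of markers.

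Taking the set as a whole, the comparison of old with young mice asked whether ageing alone raised reactive genes. Of 8 members with enough counts, 0 passed the edgeR threshold, 2 (Gfap and Lcn2) had an unadjusted p under 0.05 (10.3% of all genes did), and DESeq2 passed 1 (Lcn2). Over all 15335 genes 2 passed by edgeR, or 0.013%. The difference was positive for 6 of the 8 and negative for Serpina3n and S1pr3, with a median log2 of 0.38 beside -0.024 over all genes. Homeostatic astrocyte markers had a median of 0.35 in the same comparison, with 12 of 15 positive and 0 past the edgeR threshold. Of the 15, 8 had an unadjusted p under 0.05, and 5 were higher without overlap between groups (4.51% of all genes were). Among them S100b, a calcium-binding protein of astrocytes, had a log2 fold change of 0.71 (edgeR adjusted p = 0.338, DESeq2 adjusted p = 0.0289). DESeq2 also passed Aldoc (adjusted p = 0.0159) and Glul (0.0214), and 1.59% of all genes it tested. The summed level of these markers was 7786 to 9378 CPM in young and 10455 to 13210 CPM in old mice. Old M1 had a sum above every young library (10455 CPM) with Gfap in the young range (273 CPM). The part of these markers in the differences of the members was not tested.

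Old-Nano and old mice were compared to ask whether treatment lowered the set in age. It did not show lower means: all 10 log2 differences were positive, from 0.025 (Cd44, SE 0.69) to 1.14 (Steap4, SE 0.85), with a median of 0.45 beside -0.0034 over all genes. None passed, and none had an unadjusted p under 0.05. Over 15257 genes edgeR passed 0 (0%), DESeq2 passed 0, and 185 had an unadjusted p under 0.05. Intervals were wide, as the SE reached 1.19 for Lcn2 and was 0.30 for the steadiest member, S1pr3 (log2 difference 0.51).

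The direction rested on 1 library. Old-Nano M2 was the highest of its group for 9 of the 10 genes (Cd44 excepted) and Old-Nano F1 the lowest for all 10. Without M2, 8 of the 10 differences were negative, with a median of -0.12 and a range from -1.34 (Lcn2) to 0.29 (Serpina3n). Without both M2 and F1, a choice made after the values were seen, 9 were positive and Lcn2 was negative (-0.81), with a median of 0.21. M2 also had the highest summed microglia markers of its group (683 CPM) and F1 the lowest (370 CPM), while homeostatic astrocyte markers spanned only 9748 to 11245 CPM over the group. Summed hepatocyte markers, at 380 to 993 CPM over the group, were highest in M2, as were oligodendrocyte markers (9998 CPM). The hepatocyte sum can follow an abundant gene and does not by itself show liver RNA. In rTg4510 and LM mice only 2 of the 15 reached the count minimum, Trf (mean count 6030) and Ttpa (79.4). All 15 had negative differences between Old-Nano and old mice (median log2 -3.14, 0 past the threshold). What these markers contribute to the values of M2 and F1 was not tested.

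**Figure D3:**
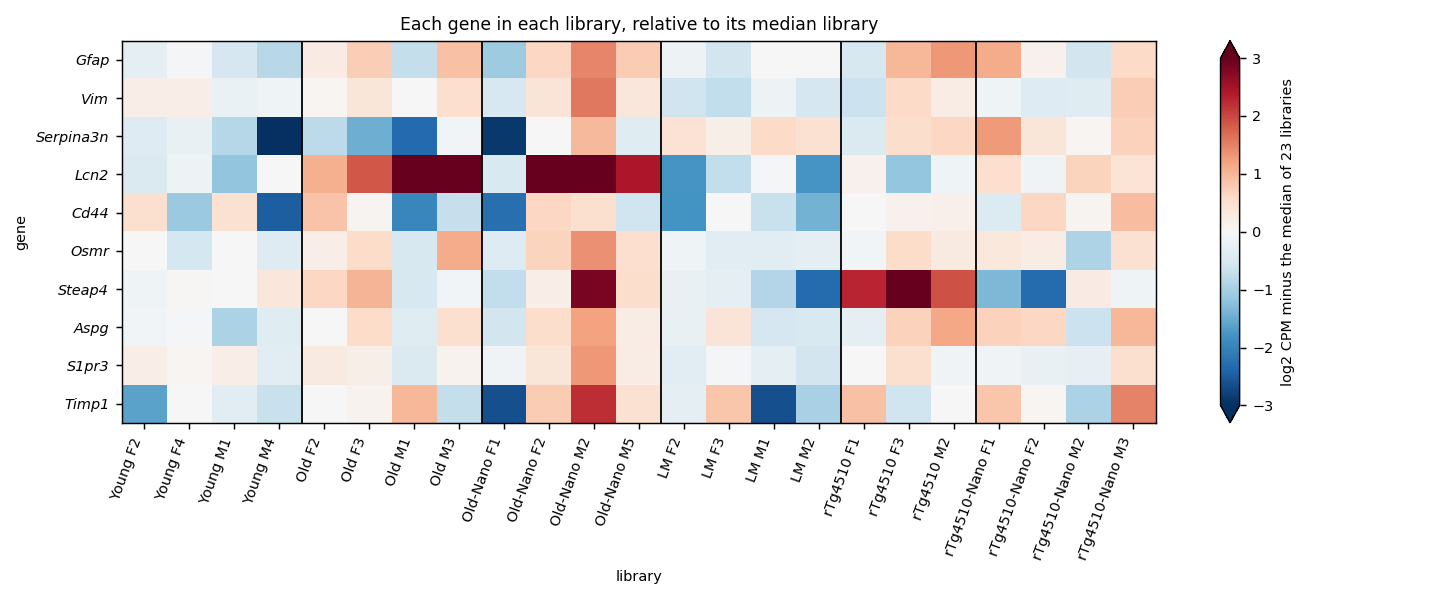
Colour gives the log2 CPM of each gene (rows) in each library (columns, by group) minus the median of that gene over the 23 libraries, with the scale ending at 3 in either direction. Old-Nano F1 is the lowest of its group for all 10 genes and Old-Nano M2 the highest for 9, and old M1 is the lowest of its group for 8.

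Old-Nano against young mice gave positive differences for all 10 members, with a median log2 of 0.87 beside -0.016 over all genes. Gfap differed by 1.08 ± 0.46 (SE; edgeR adjusted p = 0.461). Again 0 members passed by edgeR, where 1 of 15368 genes did (0.00651%), and 3 (Gfap, Lcn2 and Osmr) had an unadjusted p under 0.05, as did 10.6% of all genes. DESeq2 passed 1 member, Lcn2, and 1.73% of the genes it tested. Without Old-Nano M2 the differences were 0.69 for Gfap and 0.55 for Osmr. This comparison shares its treated mice with the previous one and its young mice with the first.

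rTg4510 and LM mice were compared to ask how the tau model differed from its controls. The paper says that the tau transgene may also disrupt other genes, so this contrast does not isolate tau. Of 8 members tested, 7 had positive differences (Serpina3n did not), 5 had an unadjusted p under 0.05 (Gfap, Cd44, Osmr, Steap4 and S1pr3; 13.7% of all genes did) and 0 passed by edgeR, where 0.811% of 15166 genes did. DESeq2 passed Steap4 alone among them and 5.04% of the genes it tested. Cd44, Osmr and Steap4 did not overlap between groups, as did 8.06% of all genes in the same direction. The median log2 was 0.71 beside -0.0011 over all genes, while homeostatic astrocyte markers had a median of 0.071. Markers of tissue at the edge of the hippocampus had positive differences too: the median log2 was 0.71 for 10 fibroblast and meningeal genes (9 positive, 1 past the threshold; 477 to 1452 CPM summed in rTg4510 and 124 to 273 CPM in LM mice), 1.21 for 7 ependymal genes (7 positive, 0 past the threshold; 46.4 to 167 and 13.02 to 81.2 CPM) and 5.90 for the 15 choroid plexus genes. The fibroblast and meningeal sum was weighted most by Igf2, the gene past the threshold (mean count 7125, log2 3.32). Dcn, the next most abundant of that list (mean count 845), differed by -0.010. Vim, Cd44, S1pr3 and Timp1 are also made by cells at the edge of the hippocampus, and the part of such tissue in the member differences was not tested. rTg4510 F1 was the lowest of its group for 6 of the 10 genes, and without it Gfap, Vim and Steap4 passed, as did 2.41% of the 15127 genes then tested. Other omissions lowered the differences, to 0.60 for Gfap without M2 and 0.34 for Vim without F3.

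Treated and untreated rTg4510 mice overlapped for every member but Steap4, which was lower in all treated mice. Such a separation downward occurred in 4.48% of 15358 genes. Of 9 members tested, 3 differences were positive and 6 negative, with a median log2 of -0.10 beside -0.0018 over all genes. By edgeR 0 members passed where 0.0521% of genes did, and by DESeq2 Steap4 passed where 1.47% did. Against LM, rTg4510-Nano mice had positive differences for all 8 members tested, with a median of 0.56 beside 0.014 over all genes. None passed (0.0263% of 15191 genes did), and Cd44 alone of the 8 had an unadjusted p under 0.05, beside 8.04% of all genes. These comparisons share the treated libraries, and the former shares its untreated ones with the comparison of rTg4510 with LM.

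**Figure D4:**
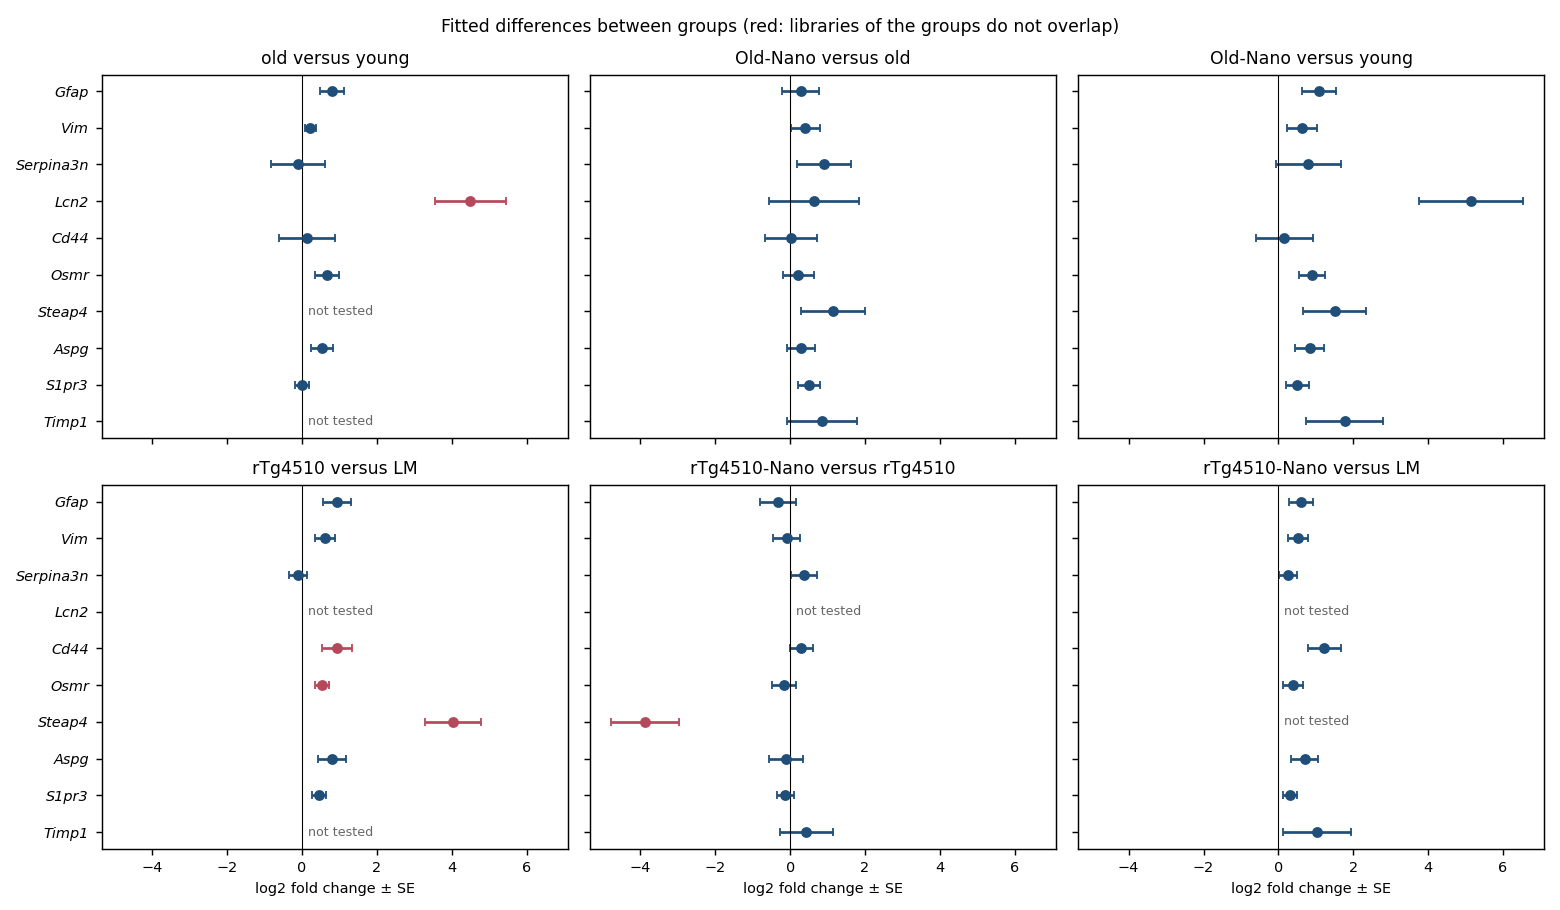
Log2 fold change of each tested member in the 6 pairwise comparisons, with bars of 1 SE and red for groups that do not overlap. Points lie right of 0 for all 10 members in Old-Nano versus old and for 7 of 8 in rTg4510 versus LM, and no member passes the edgeR threshold in any comparison.

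The joint fit of all 23 libraries tested whether the age and tau-model differences of a gene, or its treatment differences in the 2 models, were unlike. For ageing minus tau, 0 of 10 members passed, beside 0.677% of 15360 genes. Steap4 differed by -3.67 ± 1.24 (log2, SE; edgeR adjusted p = 0.259) and Lcn2 by 3.45 ± 2.07 (edgeR adjusted p = 0.652). Lcn2 separated the ages and Steap4 the tau groups, and neither difference between the models passed the threshold. For treatment in old minus treatment in rTg4510 mice, 0 of 10 passed beside 0.345% of genes, and Steap4 differed most, by 4.99 ± 1.2 (edgeR adjusted p = 0.115). Without Old-Nano M2 that difference was 3.54.

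The order of group means differed by gene, and with 1 exception neighbouring groups in that order overlapped. The exception was Lcn2, where all old libraries lay above all rTg4510-Nano libraries, the next group below. Old-Nano had the highest mean of Vim, Lcn2, Osmr, S1pr3 and Timp1, rTg4510 of Gfap, Steap4 and Aspg, and rTg4510-Nano of Serpina3n and Cd44. LM had the lowest mean of Vim, Lcn2, Cd44, Osmr, Steap4 and S1pr3.

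Other genes of reactive astrocytes mostly did not pass the edgeR threshold. The 3 further genes of the shared set were the small heat shock protein Hspb1, the chemokine Cxcl10 and the copper-carrying ferroxidase Cp, and 0 of them passed in any comparison. Hspb1 stood at 2.91 to 5.07 CPM in young and 5.48 to 8.98 CPM in old mice without overlap (log2 fold change 0.75, edgeR adjusted p = 0.370). Of 12 A1 genes tested, 9 were positive in old against young mice (median log2 0.58) and 10 in rTg4510 against LM mice (median 0.69). With age 8 of the 12 had an unadjusted p under 0.05, beside 10.3% of all genes. In rTg4510 mice 7 of the 12 did, beside 13.7%. Amigo2 was among them and lower both times. The only one past the edgeR threshold was the stress-responsive chaperone Fkbp5, which was lower in rTg4510 mice (log2 -0.77, edgeR adjusted p = 0.0469; 35.2 to 45.7 CPM beside 59.9 to 77.2 CPM in LM). DESeq2 passed higher Psmb8 with age (adjusted p = 0.0250). In rTg4510 mice it passed higher H2-T23 (0.0158), higher Fbln5 (0.0118) and lower Fkbp5 (4.1e-05). It passed 1.59% and 5.04% of all genes it tested. Of 10 A2 genes tested, 2 were positive with age (median -0.17) and 8 in rTg4510 mice (median 0.32), with 0 past the edgeR threshold. DESeq2 passed higher Cd14 in rTg4510 mice (adjusted p = 0.0321).

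No gene of the receptor pathway through which Osmr acts passed in these comparisons. Of 18 genes of the gp130, JAK and STAT3 pathway, 14 were tested and 0 passed in old against young mice (7 positive, 7 negative, median 0.011) or in rTg4510 against LM mice (10 positive, 4 negative, median 0.17). Oncostatin M itself was at 0 to 1.01 CPM in every library. Stat3 stood at 61.6 to 68.8 CPM in rTg4510 and 50.8 to 62.5 CPM in LM mice, and Socs3, a feedback inhibitor induced by STAT3, at 3.18 to 3.55 and 1.44 to 3.37 CPM. Lifr, the receptor subunit for leukaemia inhibitory factor, stood at 41.5 to 44.8 CPM in rTg4510 and 48.3 to 64.7 CPM in LM mice. Its log2 fold change was -0.38 ± 0.11 (SE) and passed neither test (edgeR adjusted p = 0.178, DESeq2 adjusted p = 0.0642). Among 25 partners of the members, such as ligands, co-receptors and protease targets, Steap1 alone passed by edgeR between rTg4510 and LM mice. DESeq2 also passed Steap2, Timp3, Cd63 and the metalloproteinase Mmp2 (adjusted p = 4.7e-05 for Mmp2), and 5.04% of all genes it tested. Choroid plexus markers summed to 4849 to 20258 CPM in rTg4510 and 46.9 to 269 CPM in LM mice. The part of choroid plexus and meningeal tissue in the differences of these partners was not tested. Cd63, a tetraspanin that binds Timp1, stood at 64.1 to 120 CPM in rTg4510 and 40.2 to 55.8 CPM in LM mice (log2 fold change 0.96, edgeR adjusted p = 0.102, DESeq2 adjusted p = 0.00155). The sphingosine receptor S1pr1 differed between ageing and tau (log2 0.65, edgeR adjusted p = 0.029), with 133 to 176 CPM in young, 186 to 261 in old, 173 to 200 in LM and 165 to 176 in rTg4510 mice. It was the only partner past the threshold upward in that contrast, and 1 partner passed downward. For treatment in old minus treatment in rTg4510 mice, 1 partner passed upward.

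Further members of the filament, matrix and signalling groups were also followed by name. The embryonic filament Nes stood at 13.2 to 20.8 CPM in LM and 15.5 to 18.2 CPM in rTg4510 mice (log2 0.042 ± 0.17, SE), and the linker filament Synm at 77.6 to 88.7 and 94.3 to 110 CPM without overlap (log2 0.28 ± 0.089, SE; edgeR adjusted p = 0.214). Spp1, the secreted ligand osteopontin that binds Cd44, stood at 1.62 to 3.93 CPM in LM and 3.71 to 6.79 CPM in rTg4510 mice (log2 1.06 ± 0.38, SE; edgeR adjusted p = 0.271). The hyaluronan synthase Has2 was under 1 CPM in every library and was not tested. Slc22a17, a receptor for the Lcn2 protein, did not overlap between LM (498 to 614 CPM) and rTg4510 mice (640 to 772 CPM; log2 0.34 ± 0.12, SE; edgeR adjusted p = 0.264), and in rTg4510-Nano mice it stood at 522 to 616 CPM, below every untreated rTg4510 library (log2 -0.31 ± 0.12, SE; edgeR adjusted p = 0.793). Choroid plexus markers separated the same groups in the same directions, and their part in the Slc22a17 values was not tested. The shared receptor subunit Il6st and the kinases Jak1 and Jak2 had log2 differences between rTg4510 and LM mice of 0.25 ± 0.17, 0.10 ± 0.079 and -0.049 ± 0.093 (SE). The complement gene C3, often used to mark A1 astrocytes, ranged from 1.34 to 42.4 CPM in young and 1.73 to 32.1 CPM in old mice, with no resolved difference (log2 -0.44 ± 1.03, SE).

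Within groups the members varied together. After subtraction of group means, the Pearson r of log2 CPM over 23 libraries was positive for all 45 pairs, from 0.14 to 0.83 with a median of 0.48. By rank (Spearman) 42 pairs were positive and 3 negative (Lcn2 with Cd44, Osmr and S1pr3), from -0.12 to 0.84 with a median of 0.31. Gfap was closest to Osmr (0.83) and Vim (0.79). The points share library preparation and tissue composition, and single libraries such as Old-Nano F1 and M2 weigh on many pairs at once, so these values describe the libraries and carry no test. Among 15360 genes, the ones most like Gfap were Fgfr1 (0.94), Slc14a1 (0.93), Cyfip1 (0.92) and Cebpd (0.92). Vim was most like Flnc (0.93), S1pr3 most like Cp (0.92), Cd44 most like Fgl2 (0.92) and Serpina3n most like Nbl1 (0.93). Lcn2 had weaker neighbours, Slc38a5 (0.77), Ptx3 (0.72) and Bcl3 (0.70). Steap4 was most like Mxra8 (0.85) and Fbln5 (0.82), Aspg like Cst7 (0.85), Osmr like Gm11681 (0.89) and Timp1 like Gpsm3 (0.80).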

How the data were processed

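Poly(A) RNA of the left hippocampus was sequenced (151-base paired reads, Illumina TruSeq). The authors deposited raw counts per gene symbol, made by trimming in fastp and alignment to mm10 (GRCm38) in STAR. Which counting program, strand setting and tool versions they used is not given in the sources used here. The 10 members, the gene lists and the tests were chosen with earlier results of these data known.

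Each pair of groups was fitted with the edgeR quasi-likelihood F test (edgeR 4.0.16, R 4.3.3; robust, two-sided, TMM) over genes with a mean normalised count of at least 10, adjusted by Benjamini-Hochberg over all genes tested, threshold 0.05. SE is the absolute log2 fold change over the square root of F. Differences between differences came from 1 fit of 23 libraries. Scripts were tested on simulated data. Alternatives were DESeq2 1.42.0, its size factors, no filter, a minimum of 50, sex as a covariate, all groups in 1 fit, a replicate block, omission of 3 libraries with other-region markers, both identical columns, and omission of each library. Log2 CPM used a prior count of 2. Totals of 17214974 to 27424344 counts per library set the precision.

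Named genes were all members, listed genes past the threshold, a fixed group of listed genes, and genes from the 5 most like each member. Cell markers and some partners past the threshold were given as counts only. Cell markers beyond these, and Steap2, were named after their values were seen. Positions came from GENCODE, promoters from RefSeq. Figures were drawn with matplotlib 3.10.9.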

Additional observations from a re-analysis of the deposited data

Results flagged for a closer look

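Of 50 combinations of a member and a group of 4 libraries, 4 held a library whose gap to the nearest other exceeded Dixon's 95% value for the range of the group. For independent, normally distributed values chance gives about 1 in 20, or 2.5 of 50. The members vary together over libraries and the rule was applied to CPM, so that rate is only a rough guide here. Old-Nano M2 accounted for a pair of them, Lcn2 at 16.2 CPM (others 0.125 to 2.21) and Steap4 at 2.96 CPM (others 0.166 to 0.524). The other two were in rTg4510-Nano M3, the library with the most pituitary markers, where Vim stood at 88.1 CPM (others 40.7 to 48.3) and S1pr3 at 15.1 CPM (others 9.11 to 10.03).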

How the results depend on the processing

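Of 602 alternative values of 36 member differences, 564 kept their direction and side of the threshold, 15 newly passed it, 0 lost it and 23 changed sign. Under DESeq2 the number of members passing rose from 0 to 1 for old versus young and Old-Nano versus young (Lcn2), rTg4510 versus LM, rTg4510-Nano versus rTg4510 and the treatment difference between models (Steap4). Steap4 also passed, as 1 member, with no filter on low counts, with all 6 groups in 1 fit or with both identical columns kept for rTg4510 versus LM, and with all 6 groups in 1 fit for rTg4510-Nano versus rTg4510. Leaving out single libraries gave 0 to 3 members past the threshold for rTg4510 versus LM, with 3 (Gfap, Vim and Steap4) only without rTg4510 F1.

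Replicate numbers name mice and give no shared litter or day. Libraries sharing a number deviated from their group means with r of -0.30 to 0.50. With the number as a block over the shared libraries, 3 members (Gfap, Vim and Steap4) passed for rTg4510 versus LM (1.89% of all genes did) and 0 in the other three comparisons fitted. Such a fit also drops the libraries without a shared number, and the 2 changes were not separated. For rTg4510 versus LM it held only F3 and M2 of each group. The mouse behind the merged rTg4510 M2 column is not known, so its number in the block is uncertain. With the block Osmr in old versus young was -0.12, Serpina3n in rTg4510 versus LM 0.24 and Cd44 in rTg4510-Nano versus rTg4510 -0.23. No paired analysis was possible for Old-Nano against old or young because these share 1 number.

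Other log2 differences that changed sign were Serpina3n in old versus young with sex as a covariate (0.046), Cd44 in Old-Nano versus old without the old library that holds other-region markers (-0.29), and Lcn2 in Old-Nano versus old without F1 and M2, an alternative chosen after seeing the data (-0.81). Leaving out single libraries, Old-Nano versus old ran from -0.11 to 0.58 for Gfap, -0.12 to 0.64 for Vim, -1.34 to 1.39 for Lcn2, -0.31 to 0.57 for Cd44, -0.13 to 0.52 for Osmr, -0.33 to 1.49 for Steap4, -0.071 to 0.51 for Aspg and -0.12 to 1.30 for Timp1. Serpina3n ran from -0.56 to 0.18 in old versus young and -0.29 to 0.16 in rTg4510 versus LM, and Gfap from -0.70 to 0.011 in rTg4510-Nano versus rTg4510. Over these settings the genes passing among all tested ranged from 33 to 762 for rTg4510 versus LM and from 0 to 235 for old versus young, omissions of single libraries aside. Low counts limit Lcn2, Steap4 and Timp1. The causes of these shifts were not tested.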
